A study of Arabidopsis thaliana with 26 samples.

Results

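The borders between pericentromere and chromosome arm were examined in a belt that starts 1.2 Mb and ends 2.5 Mb from the centromere on 8 arms of the Arabidopsis genome. The members of the belt are 5152 HindIII fragments of 66846 in all, chosen by their distance to the centromere alone, with the short arms of chromosomes 2 and 4 left out. Arms are named by chromosome and side (1L is the left arm of chromosome 1), and each belt holds between 610 (1L) and 707 (5R) fragments. The belt was compared with the pericentromere of the same arms (0.1 to 1.2 Mb, 5823 fragments) and with the outer arm (2.5 Mb to the chromosome end, 49516 fragments). The data were 26 4C libraries of 13 viewpoints, each in replicates A and B, from aerial tissue of wild-type Col-0 seedlings grown for 14 days. In 4C, crosslinked chromatin is cut with a first enzyme (here HindIII) and ligated, and whatever was joined to 1 chosen fragment, the viewpoint, is amplified and sequenced. All libraries share genotype, age and tissue. They differ in the viewpoint, in the second enzyme (NlaIII for 7 viewpoints, DpnII for 6) and in how sequencing adapters were added. The tissue holds many cell types, so a contact is an average over them.

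The centromere-proximal parts of Arabidopsis chromosomes are rich in transposons and poor in genes, and their histone H3 carries dimethylation of lysine 9 (H3K9me2) and monomethylation of lysine 27 (H3K27me1), both marks of silent chromatin. In interphase nuclei these parts gather in dense chromocenters, whereas the gene-rich arms lie outside them. Trimethylation of lysine 36 (H3K36me3) is laid down over transcribed genes and marks the arms. In between, one type of chromatin gives way to the other.

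A 4C contact is read from the HindIII site of a fragment, and only if a site of the second enzyme lies close enough for the circle to be amplified. The sequences at such ends show what a contact in the belt looks like. The first is the end of the viewpoint that itself lies in the belt, AT3G44380, from which its libraries were read. The others are both ends, up to the nearest NlaIII site, of the most contacted fragment in the highest and in the lowest belt window of those named further on. They are reference sequence (RefSeq, TAIR10.1, plus strand), and capitals mark the sites of HindIII (AAGCTT), NlaIII (CATG) and DpnII (GATC).
AT3G44380 viewpoint end, chr3:16036254-16036400: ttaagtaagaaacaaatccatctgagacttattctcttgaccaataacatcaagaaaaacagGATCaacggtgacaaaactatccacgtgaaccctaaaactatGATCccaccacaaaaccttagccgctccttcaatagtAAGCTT
high window left end, chr3:15556012-15556083: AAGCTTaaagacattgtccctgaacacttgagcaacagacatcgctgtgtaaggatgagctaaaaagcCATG
high window right end, chr3:15558499-15558564: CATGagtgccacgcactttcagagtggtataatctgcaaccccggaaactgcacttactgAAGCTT
low window left end, chr1:12818012-12818255: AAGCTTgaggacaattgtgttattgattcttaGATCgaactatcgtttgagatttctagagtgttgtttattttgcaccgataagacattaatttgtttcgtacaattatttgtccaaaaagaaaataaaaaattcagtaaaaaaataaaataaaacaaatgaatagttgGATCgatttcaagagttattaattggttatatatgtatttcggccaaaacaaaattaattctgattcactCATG
low window right end, chr1:12821380-12821441: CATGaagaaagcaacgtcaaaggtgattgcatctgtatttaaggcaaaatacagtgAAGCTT
The AT3G44380 end lies in coding sequence of that gene. The high window fragment (chr3:15556012-15558564) lies within the pseudogene AT3G43654, and the low window fragment (chr1:12818012-12821441) is partly covered by the pseudogene AT1G35060. A usable second site, less than 1000 bp from an end, was present in 84.7% of belt fragments for NlaIII and in 83.7% for DpnII, against 84.2% and 84.6% in the outer arm and 74.6% and 74.7% in the pericentromere. The belt held 49.7 HindIII fragments per 100 kb, the outer arm 54.1 and the pericentromere 66.1, and its GC content was 35.2% against 35.9% and 36.9%. In these sequence features the belt resembled the outer arm, except that it held fewer HindIII sites than either neighbour.

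Between 501056 (AT3G44380 A) and 6549825 reads (hk4s A) per library lay at HindIII ends, and 254687 to 3357847 of them on the fragments kept. Contacts are given as reads at HindIII ends scaled to a total of 1000000 such reads on kept fragments (RPM), averaged over the fragments of a region. Left out were fragments nearer than 1 kb to the viewpoint or nearer than 100 kb to a centromere, those without a usable second site, and those whose genomic DNA reads exceeded 10 times the median. None of the last kind lay in a belt. For each library 4313 to 4363 belt fragments were kept. The libraries put 4257 (AT1G51860 B) to 82595 reads (hk4s A) on the belts of chromosomes other than the viewpoint's. In the thinnest library (MEA F8 A) 29.0% of these belt fragments carried reads, in the densest (FWA A) 90.4%. Viewpoints are spelled as in the sample names. They came in 2 sequencing batches. The later one held YAO, hk4s, SWN, AT3G44380 and AT1G51860, all with NlaIII and none farther than 4.17 Mb from the centromere. The first one held the other 8, among them all DpnII viewpoints, none nearer than 6.42 Mb. In the first batch the 4C primers carried the sequencing adapters, and in the later one adapters were ligated during library preparation. Batch, adapter method and absolute distance therefore cannot be told apart, and the second enzyme is partly bound to them. In the later batch, replicate A was above replicate B in RPM in the pericentromere, the belt and the outer arm of other chromosomes for 5 of 5 viewpoints, against 1 of 8 in the first batch. A factor common to all regions cancels in a ratio formed within a library.

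In chromatin marks the belt was intermediate on every arm. The density of a mark, the percentage of a fragment's nucleotides it covers, averaged 13.6 for H3K9me2 in the belt (SD 5.27 over 8 arms), 28.8 in the pericentromere and 1.36 in the outer arm. H3K27me1 averaged 19.1 in the belt (SD 6.39), between 33.8 and 3.69. H3K36me3 averaged 16.6 in the belt (SD 6.02), between 5.94 in the pericentromere and 38.8 in the outer arm. For each of the 3 marks the belt lay between its neighbours on 8 of 8 arms. These tracks come from single published experiments and arms are not replicates, so the values carry no test.

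The arms differed in how far the belt was heterochromatic. The belt of 2R had the highest H3K9me2 (21.1) and H3K27me1 (29.2) densities and the fewest fragments with an annotated gene (23.5%). The belt of 5L had the lowest H3K9me2 density (6.52) and the highest H3K36me3 density (26.2). The belt of 4R had the lowest H3K27me1 density (11.2) and the most fragments with a gene (66.8%). The outer arm differed far less, with H3K9me2 from 1.07 (5L) to 1.80 (3R). On the scale from the outer arm (0%) to the pericentromere (100%) of the same arm, the belt stood between 21.6% and 66.1% for H3K9me2, between 22.1% and 76.1% for H3K27me1 and between 46.8% and 86.4% for H3K36me3, the range nearest to the pericentromere.

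Averaged over the arms, other features followed the same order. Density of H3K4me2, a mark of gene-rich chromatin, was 14.0 in the belt, 3.39 in the pericentromere and 33.5 in the outer arm. Transcription density was 6.79, against 0.906 and 20.0. Transposable elements overlapped 69.1% of belt fragments, 79.0% of pericentromeric and 18.8% of outer arm fragments. This order did not hold on every arm. The belt stood above the pericentromere on 1L (72.5% and 71.7%), 2R (84.8% and 84.1%) and 5R (75.2% and 32.4%), and below it on the others. By its transposons the belt was on average close to the pericentromere, while 44.4% of its fragments held a gene, against 10.4% and 88.4%. Genomic DNA reads, a measure of how well reads can be placed, averaged 9.25 per belt fragment and 9.50 per outer arm fragment, whereas the pericentromeres ranged from 6.504 (1R) to 15.5 (3R).

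Within the belt the marks did not fade evenly. Averaged over arms in bins of 100 kb, H3K9me2 stayed between 17.4 and 23.9 up to 1.7 Mb, was 8.35 between 1.8 and 1.9 Mb and 12.8 in the next bin, and was 7.91 in the last bin before 2.5 Mb. H3K27me1 was 29.5 in the first bin and 13.1 in the last. H3K36me3 went from 8.22 to 19.5 over the same bins, still below the outer arm. Split in the middle, the inner side of the belt had the higher H3K9me2 density on 8 of 8 arms (18.6 against 8.77 on average), the higher H3K27me1 density on 8 of 8 (24.8 against 13.8) and the higher H3K36me3 density on 0 of 8 (11.9 against 21.0).

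**Figure D1:**
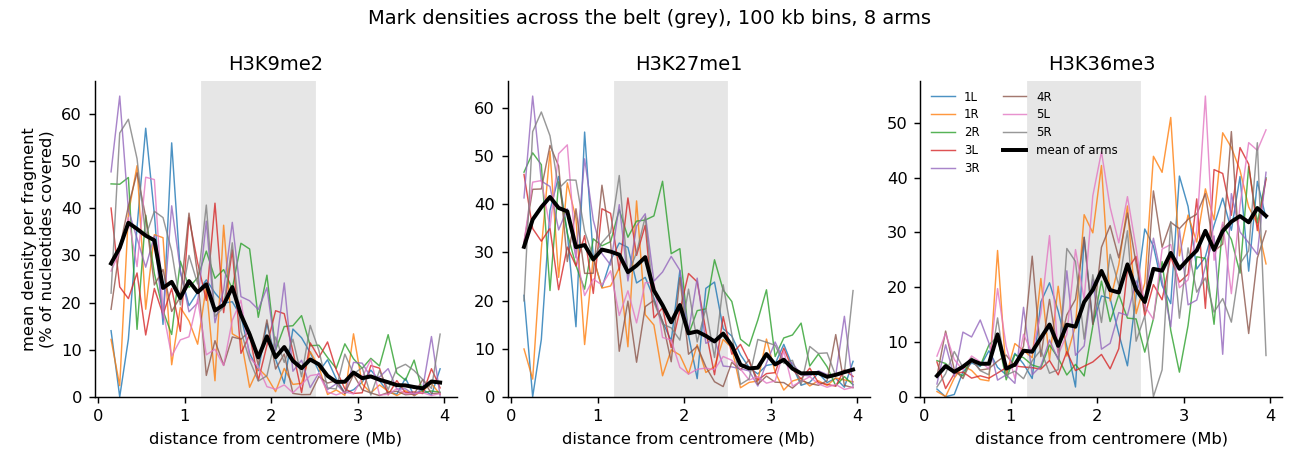
Mean density per fragment (percentage of nucleotides covered) of H3K9me2, H3K27me1 and H3K36me3 against the distance from the centromere in Mb, in bins of 100 kb. Thin lines are the 8 arms, the black line is their mean, and the belt is grey; both silent marks fall and H3K36me3 rises across the belt, with large differences between arms.

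The border of a mark was placed, on each arm, at the outer edge of the last bin within 4 Mb that was still on the pericentromeric side of the midpoint between pericentromere and outer arm. For H3K9me2 this border lay inside the belt on 7 of 8 arms, at 1.6 Mb on 5R, 1.7 Mb on 1L and 5L, 2.0 Mb on 4R, 2.2 Mb on 3L and 3R and 2.4 Mb on 2R. On 1R it lay at 3.0 Mb. For H3K27me1 it was inside the belt on 5 of 8 arms, and for H3K36me3 on 0 of 8, with borders from 2.6 Mb (1R) to 4.0 Mb (5R). The last position is the limit of the search. A single bin can set such a border, and bins on the other side of the midpoint came before it. The first crossing of the midpoint for H3K9me2 had a median of 0.85 Mb (0.1 to 1.6 Mb) and lay inside the pericentromere on 5 of 8 arms. On 1L (0.1 Mb) and 1R (0.2 Mb) the bin past this crossing had H3K36me3 densities of only 1.42 and 0.04. There the crossing was thus not a change to the marks of the arm. On 4R only 1 of the 13 belt bins was on the pericentromeric side for H3K9me2, and on 2R 9 of 13 were. With bins of 50 kb the median border moved outwards, for H3K9me2 from 2.1 to 2.75 Mb.

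Contacts were compared first on chromosomes other than the viewpoint's, where distance along the fiber plays no part. Belt fragments received more reads than pericentromeric ones and fewer than those of the outer arm. The mean over viewpoints was 5.78 ± 1.40 RPM per fragment in the belt (SD, n = 13), 4.52 ± 1.24 in the pericentromere and 9.01 ± 2.03 in the outer arm. The log2 ratio of belt to pericentromere was 0.36 ± 0.22 (SD, n = 13), or 1.29-fold higher in the belt, and was positive for 13 of 13 viewpoints (exact sign-flip permutation test over viewpoints, two-sided, adjusted p = 0.000407 over 5 ratios). The log2 ratio of belt to outer arm was -0.65 ± 0.51 (SD, n = 13), or 1.56-fold lower in the belt, and negative for 11 of 13 viewpoints (same exact test, adjusted p = 0.00171). The first ratio was 0.12 when reads were counted per kb (adjusted p = 0.0754, same exact test) and 0.15 when fragments with many genomic DNA reads were kept (adjusted p = 0.0703), so the step at the inner edge depends on these choices. The second was -0.16 when the outer arm was limited to 2.5 to 3.8 Mb, still past the threshold (same exact test), so that the belt differed less from the adjacent arm than from the whole of it.

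The viewpoints differed by more than their replicates did. The median SD between the replicates of a viewpoint was 0.0699 for the ratio to the pericentromere and 0.0359 for the ratio to the outer arm, against 0.22 and 0.51 between viewpoints. The largest replicate SD of the second ratio was 0.41, for MEA F8. Its neighbour MEA F6, on the next fragment but one, had a replicate SD of 0.37.

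AT3G44380, a viewpoint inside the belt of 3R 2.44 Mb from its centromere, put 6.06 and 5.33 RPM per fragment (replicates A and B) on the belts of other chromosomes, with means of 3.08 in the pericentromere and 7.18 in the outer arm. Its ratio to the pericentromere, 0.90, was the highest of all viewpoints. AT1G51860 on 1R, the next in relative position, put 6.94 and 5.11 RPM on the belts, above both the pericentromere (4.05) and the outer arm (5.38). YAO on 4L, 1.21 Mb from its centromere, put 4.39 and 3.61 RPM on them, against 3.29 and 7.15. Of these viewpoints near the centromere, YAO thus had the lowest level in the belt.

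PHE on 1R (relative position 0.60) had the highest level in the belt, 9.10 and 9.76 RPM, again above both the pericentromere (7.83) and the outer arm (8.25). hk4s, inside the heterochromatic knob of 4L, put 6.37 and 4.87 RPM on the belts, close to its outer arm level of 6.32. AG put 6.39 and 6.64 RPM on the belts and 10.48 on the outer arm. The AG value for the outer arm rests in part on 1 fragment of 2R, which held 9.90% (A) and 10.54% (B) of all its outer arm reads. Without the most read fragment of each region its ratio to the outer arm was -0.54 in place of -0.69.

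FWA, FLC and FIS had similar levels in the belt, with means of 6.63, 6.55 and 5.92 RPM, and outer arm means from 9.57 (FWA) to 9.91 (FLC). SWN, on 4L at relative position 0.78, put 5.60 and 4.26 RPM on the belts and 9.40 on the outer arm. The viewpoints at the chromosome ends were lowest relative to the outer arm. MEA F6 put 5.87 and 3.54 RPM on the belts and 11.5 on the outer arm. MEA F8 put 4.90 and 3.72 on them and 10.01 on the outer arm. CKI1 put 4.48 and 5.05 RPM on the belts against 12.2 on the outer arm, and its belt and pericentromere (4.66) hardly differed.

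The 2 viewpoints with a positive ratio to the outer arm, AT1G51860 (0.16) and PHE (0.19), both lie on 1R, and both replicates of each were positive. Over all libraries the belt was below the outer arm in 22 of 26 and above the pericentromere in 25 of 26, the exception being CKI1 A (-0.04).

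**Figure D2:**
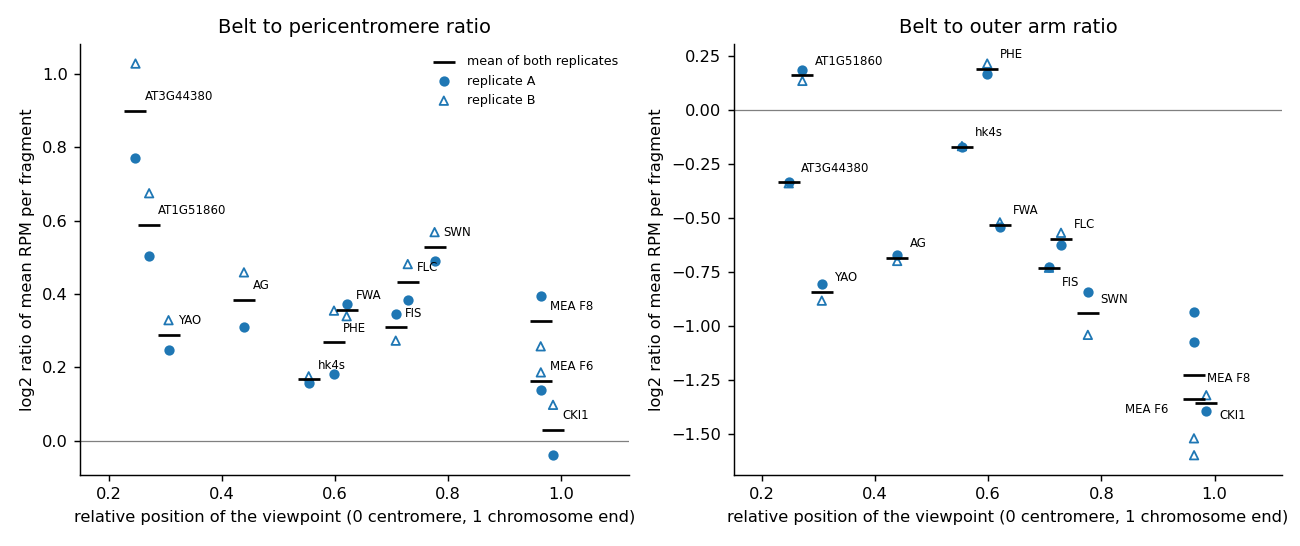
Log2 ratio of mean RPM per fragment in the belt over that in the pericentromere (left) and in the outer arm (right), on chromosomes other than the viewpoint's, against the relative position of the viewpoint on its arm. Filled circles are replicates A, open triangles replicates B and bars their mean. The ratio to the outer arm ranges from 0.19 (PHE, relative position 0.60) to -1.36 (CKI1), and is lowest for the viewpoints at the chromosome ends.

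The ratios were then set against the position of the viewpoint, as the share of its arm between centromere (0) and chromosome end (1). The belt to outer arm ratio fell towards distal viewpoints, with Spearman's rho = -0.74 (permutation test over 13 viewpoints, two-sided, p = 0.00564, adjusted p = 0.0282 over 5 relations) and Pearson's r = -0.70 (p = 0.00848, adjusted p = 0.0424). When CKI1 and AT3G44380, at the extremes of position, were left out, Pearson's r became -0.64 (permutation p = 0.0322, n = 11). Within the first batch rho was -0.81 (exact permutation test, n = 8, p = 0.0218, adjusted p = 0.109), while for the later batch, with 5 viewpoints, no correlation was computed. Among NlaIII viewpoints rho was -0.82 (exact permutation test, n = 7, adjusted p = 0.171) and among DpnII viewpoints -0.54 (n = 6, adjusted p = 0.823 by the same test). The MEA viewpoints are neighbours and not independent, and without MEA F8 rho was -0.66 (permutation p = 0.0224, adjusted p = 0.112). The adjusted p also exceeded the threshold without MEA F6, SWN or CKI1 (0.112 each, permutation test), AT1G51860 (0.0577) or FIS (0.0552). With the outer arm limited to 3.8 Mb, rho was -0.24 (permutation p = 0.437), so that no relation was detected against the adjacent arm alone.

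The belt to pericentromere ratio gave rho = -0.51 with position (permutation p = 0.0817, adjusted p = 0.204) and r = -0.61 (p = 0.0227, adjusted p = 0.0568), short of the threshold. With the same 2 viewpoints left out, Pearson's r became -0.31 (permutation p = 0.357), so this trend rests on them.

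**Figure D3:**
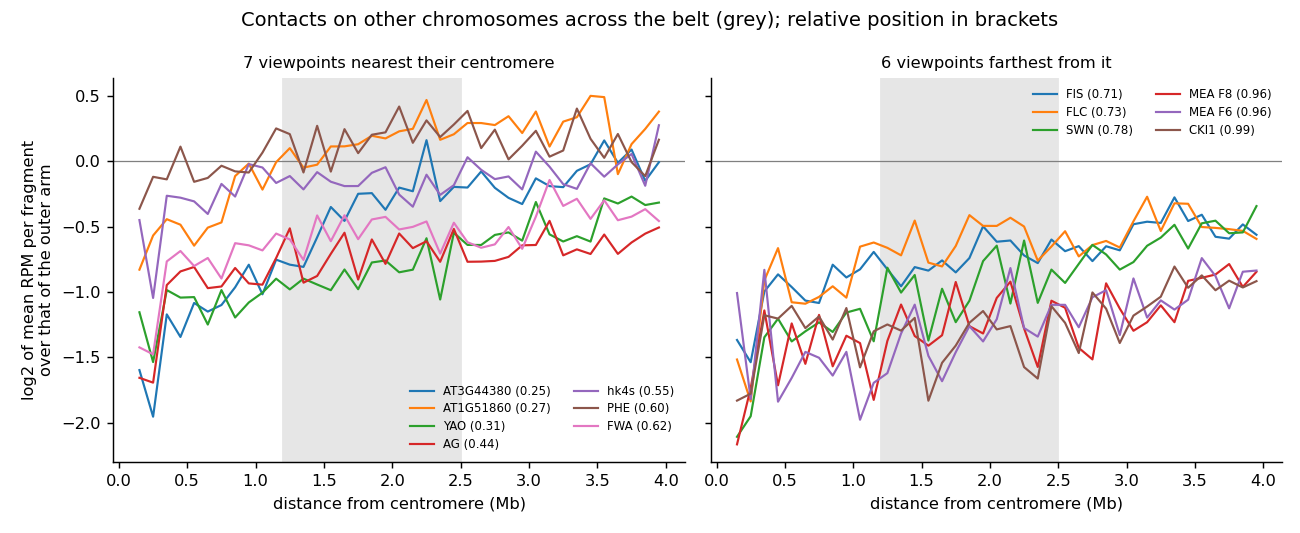
Contacts across the belt (grey) on chromosomes other than the viewpoint's, as log2 of mean RPM per fragment in bins of 100 kb over the mean of the outer arm, against the distance from the centromere in Mb. Each line is a viewpoint (mean of both replicates, relative position in brackets); PHE and AT1G51860 run at or above 0 through most of the belt, and MEA F6, MEA F8 and CKI1 lie lowest.

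Across the belt itself contacts changed little compared with the marks. The mean of the last 3 bins (2.2 to 2.5 Mb) over that of the first 3 (1.2 to 1.5 Mb) was 0.11 ± 0.20 on the log2 scale (SD, n = 13), above 0 for 9 of 13 viewpoints, as a description without a test. The steepest rise was that of AT3G44380, from 4.35 to 6.71 RPM (0.62), with its highest bin, 8.03 RPM, at 2.2 to 2.3 Mb. In the bin that holds its own distance from the centromere (2.4 to 2.5 Mb) it had 6.27 RPM, and 2.2 to 2.3 Mb was also the highest belt bin of AT1G51860 (7.45 RPM) and SWN (6.17 RPM). CKI1 had the steepest fall, from 5.13 to 4.53 RPM (-0.18). The highest of all bins within 4 Mb lay inside the belt for 2 of 13 viewpoints, AT3G44380 and PHE (11.03 RPM at 2.0 to 2.1 Mb).

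Each of the 8 belts was seen by 8 to 12 viewpoints from other chromosomes, which made 85 pairs of arm and viewpoint. Means of arms on different chromosomes thus rest on different sets of viewpoints. The belt was above the pericentromere in 70 pairs, above the outer arm in 13, and between both in 60. The step at the inner edge was largest on chromosome 1. There the log2 ratio to the pericentromere was 0.88 ± 0.29 on 1R and 0.65 ± 0.23 on 1L (SD, n = 9 viewpoints each), positive for 9 of 9 on both. On 2R it was 0.16 ± 0.26 (SD, n = 11), positive for 7 of 11, and on 3R 0.16 ± 0.25 (n = 12), positive for 9 of 12. The pericentromere of 1R also had the fewest genomic DNA reads per fragment of the 8 (6.504 against 9.74 in its belt). Its fragments had a mean length of 1095 bp, against 2016 bp in its belt. On 1L these lengths were 2036 and 2119 bp. The part of reads and of length in the ratio was not tested arm by arm. With contacts divided by genomic DNA reads, the ratio over all arms was 0.38. The ratio to the outer arm varied less, from -0.79 ± 0.40 on 1L to -0.52 ± 0.54 on 5L.

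**Figure D4:**
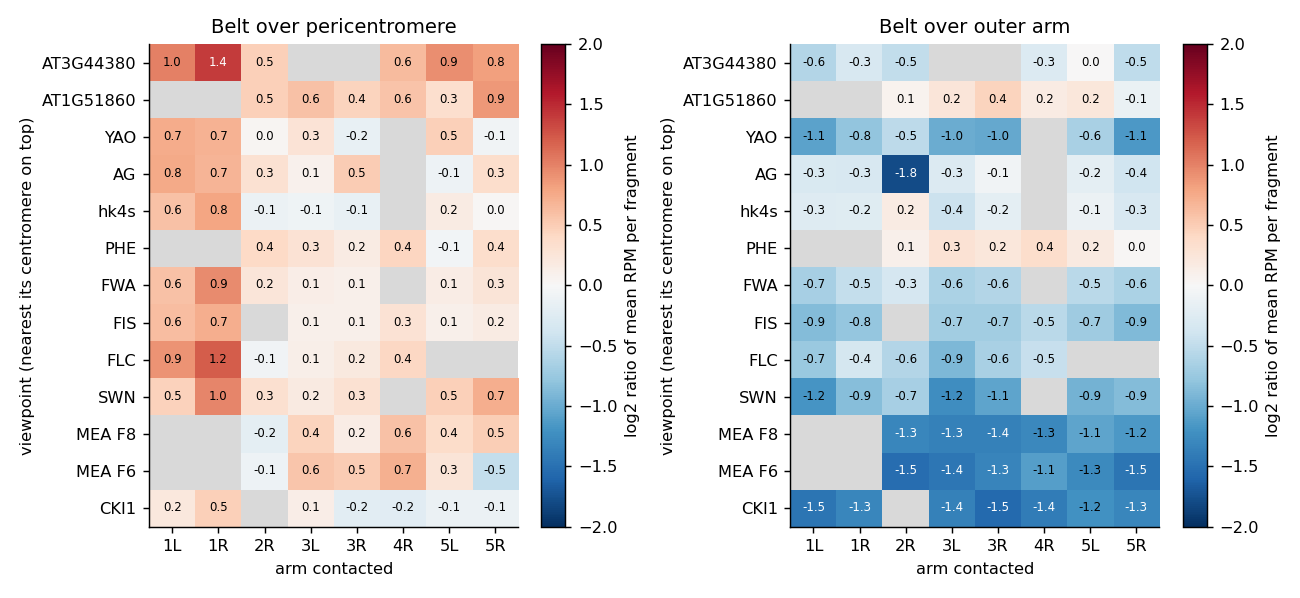
Log2 ratio of mean RPM per fragment in the belt over the pericentromere (left) and over the outer arm (right) for each viewpoint (rows, ordered by relative position with the lowest on top) and each arm of another chromosome (columns), as means of both replicates, with grey for the viewpoint's own chromosome. Positive values against the outer arm are found mainly in the rows of AT1G51860 and PHE, and the low value of AG on 2R includes the fragment with 10.54% of its outer arm reads.

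Over the 8 arms, the belt to outer arm ratio went with the H3K36me3 density of the belt (r = 0.72, rho = 0.71) and against its H3K9me2 density (r = -0.53, rho = -0.55). These are descriptions over 8 arms that share libraries, and carry no p. The arm ratios also rest on different viewpoints. Those of 1L and 1R leave out AT1G51860, PHE and the MEA viewpoints, and that of 4R leaves out AG, FWA, hk4s, SWN and YAO. Arm and set of viewpoints therefore cannot be told apart in the order of arms. The belts of 5L and 4R, richest in H3K36me3, had the ratios nearest 0 (-0.52 and -0.57). The belt of 2R, with the highest H3K9me2 density, had a ratio of -0.63, closer to 0 than that of 1L (-0.79). The 2R ratio includes AG at -1.78, where 1 fragment held 10.54% of its outer arm reads in replicate B. Without AG the 2R ratio would lie nearer 0, and the order of arms and the relations were not recomputed without it.

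Within the belt, fragments were split at the median density of each mark in their own arm and 100 kb bin, so that both groups lay at the same distance from the centromere. Fragments above the median of H3K36me3 received more contacts, with a log2 ratio of 0.22 ± 0.06 (SD, n = 13), or 1.17-fold, positive for 13 of 13 viewpoints (exact sign-flip permutation test, adjusted p = 0.000407). Its lowest values were 0.12 for MEA F8 and PHE and its highest 0.31 for YAO. In single libraries it was positive in 25 of 26, the exception being MEA F8 A (-0.09). The ratio remained positive under each of the alternatives tried, between 0.14 and 0.31, and past the threshold in the same exact test, except for the later batch, whose 5 viewpoints were too few for it. The viewpoints were scored on largely the same belt fragments. For this and the other ratios the test thus measures agreement over viewpoints, not over fragments.

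Fragments above the median of H3K9me2 also received more reads per fragment, with a log2 ratio of 0.20 ± 0.14 (SD, n = 13), positive for 11 of 13 viewpoints (same exact test, adjusted p = 0.00153). MEA F6 (-0.05) and YAO (-0.04) were the exceptions and FWA (0.39) was highest. For H3K27me1 the ratio was 0.14 ± 0.08, positive for 13 of 13 (same exact test, adjusted p = 0.000407). These ratios of the silent marks changed when reads were counted per kb of fragment. The group high in H3K9me2 had a mean length of 2696 bp, against 2012 bp in the low group (NlaIII viewpoints), and per kb the H3K9me2 ratio was -0.17 (adjusted p = 0.00814, same exact test), the opposite direction. For H3K27me1 it was 0.02 per kb (adjusted p = 0.353). For H3K36me3 the groups were closer in length (2391 and 2262 bp), and the ratio per kb was 0.18. Division by length in itself lowers the group with the longer fragments. Groups of matched length were not compared, so a dependence of contacts on length was not tested. The groups split by H3K9me2 also differed in genes (0.226 per fragment in the group high in H3K9me2, 0.475 in the low group, NlaIII viewpoints) and in transcription, whose part was not tested. None of the 3 mark ratios changed detectably with viewpoint position (rho from -0.19 to 0.14, lowest permutation p = 0.545, adjusted p = 0.71 for each).

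To find where contacts change with the position of the viewpoint, reads were summed over windows of 25 fragments and the slope on relative position was tested for each window over viewpoints of other chromosomes. Of 160 belt windows, 48 fell with more distal viewpoints and 0 rose (edgeR quasi-likelihood test, Benjamini-Hochberg adjusted p at most 0.05). An unadjusted p below 0.05 in the same test was found for 74, a count that was not made over all windows and so has no share beside it. Over all 1961 windows of the 10 arms, 8.92% fell and 12.5% rose, 21.4% together, against 30% falling in the belt. In the pericentromere 16 of 148 windows fell (10.8%), and in the outer arm 106 of 1532 fell (6.92%) and 239 rose (15.6%). The part of the outer arm next to the belt was not counted on its own. Whether falling windows were as common there as in the belt was therefore not tested. The median slope, as the log2 change from centromere to chromosome end, was -1.16 in the belt, -0.70 in the pericentromere and 0.17 in the outer arm, and 155 of 160 belt slopes were below 0. Slopes are relative to a viewpoint's reads on other chromosomes, with scaling factors per chromosome, and are not changes in RPM. At the lowest relative positions, belt RPM was 5.69 (AT3G44380), 6.02 (AT1G51860) and 4.00 (YAO). At the highest it was 4.31 (MEA F8), 4.71 (MEA F6) and 4.77 (CKI1). DESeq2 called 59 of the 160 belt windows as falling, and 229 of 1965 windows in all. The edgeR count rested on few viewpoints. Without AT1G51860 it was 18 (64 of 1961 windows falling in all), without CKI1 24 (80 of 1961) and without MEA F6 29 (99 of 1961). Without YAO it was 74 (262 of 1962). With replicate B alone it was 27 (105 of 1960) and with replicate A alone 11 (40 of 1960). In the belt 0 windows rose each time.

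The falling windows were unevenly spread over arms. They made up 13 of 21 belt windows on 3R, 12 of 22 on 5L and 9 of 19 on 4R, but 2 of 20 on 1L, 2 of 20 on 1R and 1 of 19 on 2R. The number of viewpoints behind each fit was 8 for 4R, 9 for chromosome 1, 11 for 2R and 12 for chromosomes 3 and 5. The counts of falling windows are therefore not directly comparable between chromosomes, though they did not follow the number of viewpoints. Both sides of the belt held them, 19 of 76 windows on the inner and 29 of 84 on the outer side. Falling and other windows of the belt had mean H3K9me2 densities of 13.8 and 13.6, mean H3K27me1 densities of 18.6 and 19.4 and mean H3K36me3 densities of 18.1 and 15.1, given as a description without a test.

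**Figure D5:**
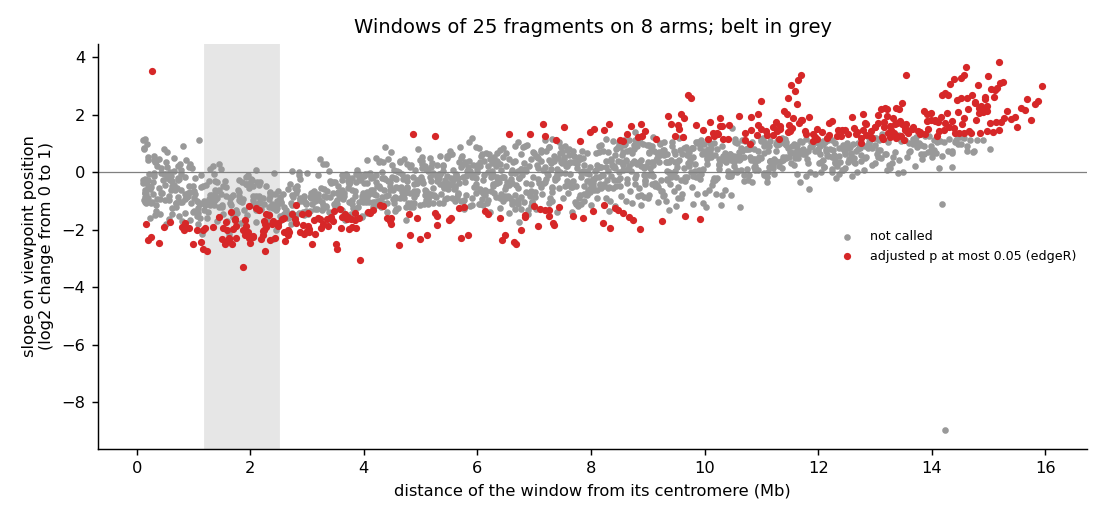
Slope of contacts on the relative position of the viewpoint for windows of 25 fragments on 8 arms, against the distance of the window from its centromere in Mb. The slope is the log2 change from centromere to chromosome end, relative to reads on chromosomes other than the viewpoint's. Red points have an adjusted p of at most 0.05 (edgeR); in the belt (grey) 48 of 160 windows are red, each below 0, and windows far out on the arms are mostly above 0.

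In each belt the window with the highest and the one with the lowest contact were picked by their mean log2 level over viewpoints. The highest was on 3R (chr3:15547644-15608264), with 8.92 RPM per fragment on average, from 2.91 (CKI1) to 14.3 (AG), and its slope on viewpoint position was -2.44. The lowest was on 1L (chr1:12773274-12821441), with 2.93 RPM, from 1.45 (CKI1) to 3.98 (SWN), and also the fewest genomic DNA reads of the 16 windows (6.21 per fragment). The 8 highest windows ranged from 6.65 to 8.92 RPM and the 8 lowest from 2.93 to 5.57. Their H3K36me3 densities had medians of 24.1 and 8.997, with overlapping ranges (5.17 to 40.4 and 1.54 to 18.3). The highest windows also had longer fragments (median of the mean lengths 2690.5 against 2192 bp) and more genomic DNA reads per fragment (median 9.69 against 8.71), whose part in their level was not tested.

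The fragments whose ends are printed above come from the first and the second of these windows. The most contacted fragment of the highest window, in AT3G43654, received 19.3 RPM on average over libraries, from 0 (MEA F6) to 49.5 (PHE), with a median of 16.0 over 12 viewpoints. Its H3K9me2 density was 3.84 and it had 11 genomic DNA reads. The most contacted fragment of the lowest window, at AT1G35060, received 7.74 RPM, from 1.22 (FLC) to 29.2 (AG), with an H3K9me2 density of 20.8 and 6.67 genomic DNA reads. Each of the fragments thus ranged more widely over viewpoints than its window did.

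On the viewpoint's own chromosome the belt was also within reach along the fiber. On the other arm of that chromosome, 9 viewpoints had a belt, and its level was above that of the belts on other chromosomes for 9 of 9. AT1G51860 reached 29.0 and 24.4 RPM per fragment on the belt of 1L, against 14.3 and 12.2 in its pericentromere and 14.2 and 12.6 in its outer arm, so that the belt was the highest of the regions there too. PHE did so with 17.6 and 17.4 RPM, against 11.9 and 11.7 and 13.6 and 13.7. Both hk4s and YAO showed levels on 4R that decreased outwards. hk4s put 55.2 and 57.6 RPM on the pericentromere, 27.6 and 23.0 on the belt and 17.3 and 14.6 on the outer arm. For YAO these were 30.96 and 33.4, 27.96 and 27.7, and 22.6 and 21.4 RPM. From MEA F6 and MEA F8 the belt of 1R received 5.24 to 6.61 RPM, above the pericentromere (2.99 to 4.14) and below the outer arm (11.1 to 15.2). Over the 9 viewpoints the belt of the other arm was above its pericentromere for 7 and above its outer arm for 5.

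AT3G44380 shows the belt from inside. Its fragment (chr3:16034268-16036400, 2133 bp) covers parts of AT3G44370 and AT3G44380, with an H3K9me2 density of 0, an H3K27me1 density of 1.55 and an H3K36me3 density of 45.2, so that the viewpoint itself carried the marks of the arm. Its contacts with its own belt were 477 RPM per fragment in both replicates, where distance along the fiber and the belt cannot be told apart. On 3L it put 19.6 and 16.96 RPM on the belt, 17.7 and 16.7 on the pericentromere and 17.7 and 17.4 on the outer arm, and the replicates of these regions overlapped.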

How the data were processed

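Reads of 26 4C libraries had been split by viewpoint and aligned to TAIR10 without mismatches (Bowtie 0.12.7, per the submitters' processing notes). The authors shared reads with several matches among fragments and deposited expected counts at HindIII ends and at second-cutter ends, without normalization or fragment filter. They also deposited expected counts of genomic DNA reads and, as signal values, mark and transcription densities in percent of a fragment's nucleotides. Numbers of annotated features per fragment and distance scores were computed by the authors from TAIR10. The distance to the centromere runs from the nearer fragment end. The 66846 fragments matched a HindIII digest of the reference. Distances to the second site fitted NlaIII in every file, so for DpnII viewpoints the sites were searched in the reference. For 7 viewpoints the methods name NlaIII and the supplementary table NlaIV, and NlaIII was used.

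The filter on genomic DNA reads (above 10 times their median of 9 per fragment) is not in the study's methods. Ratios were formed per library, averaged over replicates and tested over viewpoints by exact sign-flip permutation, and relations with position by 100000 permutations (all permutations below 10 viewpoints), two-sided, each adjusted over 5 by the Benjamini-Hochberg method. A fragment at a median density of 0 counted as low, and one at any other median was left out. For windows, fragments usable with both enzymes were taken, and reads of both replicates were summed and rounded. The library size was the sum of window reads on chromosomes other than the viewpoint's. TMM factors were computed per chromosome, and slopes were fitted with edgeR 4.0.16. On simulated counts, 50 of 50 windows with a planted slope of -2, and 37 of 50 with -1, were called, with 3 of 1763 unchanged windows. The simulation used a fixed dispersion, the same window means for all viewpoints and no link between the MEA viewpoints. These rates therefore need not hold for the real counts. No molecular identifiers were used, so reads are not independent molecules and errors were taken from libraries and viewpoints. Replicates A and B are biological replicates by the study's description, and libraries of 1 letter shared a sequencing lane within a batch. Their deviations from the viewpoint means had correlations from -0.52 to 0.20 (mean -0.0125, 28 pairs of viewpoints, first batch) and from 0.0076 to 0.197 (mean 0.101, 10 pairs, later batch). The windows named are the highest and lowest of each belt, with genes and sequence for the fragment most contacted in the extremes. The members, marks and alternatives were chosen with earlier results of these data known. DESeq2 1.42.0, limma 3.58.1 and R 4.3.3 were used beside SciPy 1.17.1, NumPy 2.4.6, pandas 2.3.3 and matplotlib 3.10.9 under Python 3.11.15.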

Additional observations from a re-analysis of the deposited data

How the results depend on the processing

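The belt to pericentromere ratio kept its direction under all alternatives (the later batch has no test, with 5 viewpoints) and missed the threshold under 2 of them, reads per kb (0.12) and fragments with many genomic DNA reads kept (0.15). The belt to outer arm ratio missed it with the 6 DpnII viewpoints alone (-0.62, where 6 viewpoints allow no p below 0.0312), and the H3K9me2 ratio with the NlaIII viewpoints alone (0.12). Per kb the H3K9me2 ratio turned to -0.17 and the H3K27me1 ratio shrank to 0.0244. The relation of the belt to outer arm ratio with viewpoint position kept its sign, but its adjusted p passed 0.05 with both kinds of ends (rho = -0.70), the outer arm up to 3.8 Mb (-0.24), without MEA F8 (-0.66), in the first batch (-0.81), with NlaIII (-0.82) or DpnII viewpoints alone (-0.54) and with absolute distance (-0.48). Leaving out each viewpoint or replicate in turn, chosen for viewpoints after seeing the data, gave rho from -0.83 to -0.66. The relations of the mark ratios with position, none past the threshold, changed sign. That of H3K9me2 was -0.0440 with cis arms, -0.33 in the first batch, -0.0714 with NlaIII and -0.0857 with DpnII viewpoints, and ranged from -0.0070 to 0.41 with a viewpoint or replicate left out. That of H3K27me1 was 0.0495 on the log2(reads + 1) scale, 0.0714 with a split at the median of each arm, 0.12 with absolute distance and 0.0302 with the replicate block, and ranged from -0.31 to 0.18. That of H3K36me3 was 0.10 without the filter on the second site, 0.0659 per kb, 0.10 in the first batch and 0.31 with DpnII viewpoints, and ranged from -0.32 to 0.0495. The cause of these changes was not tested.

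The count of 48 belt windows was 29 with both kinds of ends, where 102 of all 1962 windows fell. It was 14 with absolute distance (89 of 1962 in all) and 28 of 41 with windows of 100 fragments (127 of 487 in all). It ranged from 11 to 74 with a viewpoint or replicate left out (40 of 1960 and 262 of 1962 in all). With bins of 50 kb the median H3K9me2 border was 2.75 Mb and the H3K27me1 border 3.1 Mb. When the letter, which marks a shared lane within a batch, entered as a replicate block, the belt to pericentromere ratio stayed 0.36. The belt to outer arm ratio stayed -0.65, and its rho with position was -0.73. With this block and the libraries as separate samples, which are not independent, 68 belt windows fell, and 277 of 1960 windows in all. In the thinnest library 29.0% of belt fragments carried reads, so single fragments there are poorly determined.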
